A study of Bos taurus with 90 samples.

Results

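Single oocytes of small and of large bovine antral follicles were compared, with 9 oocytes from follicles of 3.1 to 3.8 mm and 10 from follicles of 9.6 to 11.6 mm. They are 19 of the 27 retained oocytes and of the 90 libraries of the series, which also holds the mural granulosa cells (MGCs) and the pooled cumulus cells (CCs) of the same follicles. The members were all small and all large oocytes except OS70702, a small follicle that the study had removed in quality control. Within them, 7 oocytes came from follicles that the study called healthy from marker levels in their MGCs, 3 small (OS62003, OS62004, OS62005) and 4 large (OL70703, OL72101, OL71801, OL70504). No animal was treated. The ovaries came from Bos taurus cows at a slaughterhouse, all oocytes were stripped of cumulus cells before lysis, and age and cycle stage are not given in the sources used here. The labels do not tie oocytes to cows, and the study took several follicles from an animal, so the p-values below treat as independent some oocytes that may share a cow and are then too small. The 8 retained oocytes of medium follicles (6.2 to 7.0 mm) entered the fit for its estimate of the spread.

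An antral follicle surrounds its oocyte with cumulus cells, which feed it through gap junctions at the tips of projections that cross the zona pellucida. Within the antral phase the oocyte completes its growth, stores mRNA and proteins for meiosis and the early embryo, and progressively silences its own transcription while it stays arrested with an intact germinal vesicle. A level measured here is a steady-state share of the polyadenylated RNA of a cell, since libraries were made by oligo(dT) priming and full-length amplification (SMART-seq2). A change in it can come from synthesis, decay or the length of the poly(A) tail, and a change of total RNA per oocyte is not seen.

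Total counts ranged from 20559699 to 53173320 in small and from 21792371 to 40425034 in large oocytes. Among genes with few counts, even counts made up 60.2 to 68.9% in small and 62.1 to 75.1% in large oocytes. The cause was not tested, so counts may not be numbers of independent fragments. The number of genes with a count ranged from 10588 to 15865 (median 15025, n = 9) in small and from 11861 to 16251 (median 15383.5, n = 10) in large oocytes. The 3 lowest were OS50502, OL71801 and OS71701. Genes are listed by Ensembl identifier only, and no table used here pairs these identifiers with symbols, so oocyte and granulosa markers could not be looked up by name. The cell type was checked by classes of genes. A gene is oocyte-enriched if its mean CPM (the count scaled to the library total) in medium oocytes is over 10 times that of both MGCs and CCs over all stages, and somatic-enriched if the mean of MGCs or of CCs is over 10 times that of medium oocytes. Oocyte-enriched genes, 1447 of those tested, took 28.1 to 31.4% of the counts in small and 27.2 to 31.1% in large oocytes. The 2164 somatic-enriched genes took 2.14 to 3.46% and 1.61 to 2.76%.

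Of 14936 genes tested, 225 were DEGs from small to large follicles, which is 1.51%. Among them 138 rose (0.924%) and 87 fell (0.582%), with a fold change above 2 and an adjusted p under 0.05 by edgeR's quasi-likelihood test. With no limit on the fold change, 844 genes (5.65%) passed, and the balance turned, with 376 that rose (2.52%) and 468 that fell (3.13%). Scaling by library totals alone gave 233 DEGs with 173 rises and 60 falls, and 459 rises and 340 falls with no fold limit, so the split of directions depends on the scaling. At an unadjusted p under 0.05, 928 genes passed the same fold change (6.21%), 585 that rose (3.92%) and 343 that fell (2.3%). The median log2 fold change over all genes was 0.04, and the median of its absolute value was 0.42.

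**Figure D1:**
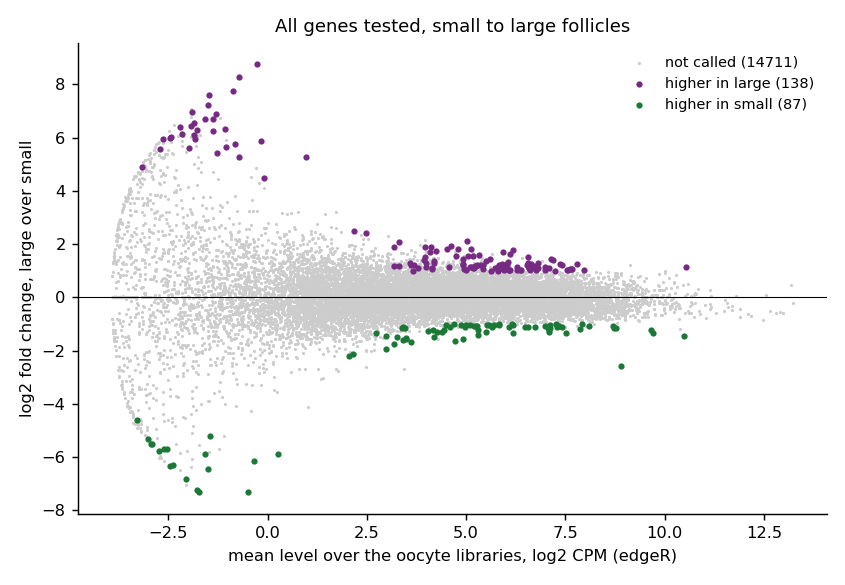
Each point is 1 of the 14936 genes, with its mean level over the oocyte libraries (log2 CPM) on the horizontal axis and its log2 fold change of large over small oocytes on the vertical axis. Purple points are the 138 DEGs that rose and green points the 87 that fell. Called genes at very low levels form an outer cloud on either side, apart from the band of abundant genes, whose largest change is the fall by 2.57.

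The DEGs fell into 2 groups by level. At low levels, 54 DEGs had a mean below 8 CPM over the 19 libraries, and 47 of them lay below 1 CPM. In 33 of these 54, 1 library held at least 50% of the summed CPM of the higher stage, so they rest on single oocytes. The fitted fold changes of such genes depend on the prior count that edgeR adds and are not given. The other 171 DEGs had a mean of at least 8 CPM, and none of them rested on 1 library in this way. They made up 1.9% of the 8982 genes at that level.

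The 171 abundant DEGs changed by moderate amounts. The 105 that rose had a median log2 fold change of 1.17 (up to 2.13), and their median level went from 31.1 CPM in small to 74.4 CPM in large oocytes. The 66 that fell had a median of -1.14 (up to 2.57 in size), and their median level went from 65.8 to 32.2 CPM. A fold change above 3 was reached by 21 of the 171. Groups of libraries overlapped at nearly every DEG. Of all 14936 genes, 11 showed no overlap between the 9 small and the 10 large oocytes (0.0736%), 5 with higher levels in large oocytes (0.0335%) and 6 with lower levels (0.0402%). Of these 11, 2 were DEGs.

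Oocytes of medium follicles lay closer to the large than to the small ones at these genes. Their mean log2(CPM + 1) was nearer to the large mean at 99 of the 105 genes that rose and at 46 of the 66 that fell. The median medium oocyte level stood at 76.3% of the way from small to large for the rising genes and at 59.4% for the falling genes. The medium libraries took no part in the contrast itself, though they shared its estimate of the spread. The same share over all tested genes was not taken, so this closeness is not shown to be particular to the DEGs. Medium oocytes had 14442 or more genes detected and small ones 10588 or more, and the part of detection was not tested.

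Oocyte-enriched genes were a smaller share of the rising genes than of all genes at this level. Of the 105, 93 were shared, 7 oocyte-enriched and 5 somatic-enriched, or 88.6%, 6.67% and 4.76%, where genes of at least 8 CPM as a whole divide into 82.0%, 14.6% and 3.45%. Of the 66 falling genes, 44 were shared, 14 oocyte-enriched and 8 somatic-enriched, or 66.7%, 21.2% and 12.1%. Both enriched classes thus made up a larger share of the falling than of the rising genes. None of these differences was tested.

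The largest changes at 8 CPM or more are given by identifier. ENSBTAG00000040202, which is oocyte-enriched, had the largest fall. In small oocytes its level was lowest at 160 CPM in OS70701, 436 at the median and highest at 2418 in OS62004. In large oocytes it ranged from 98.4 to 352 CPM with a median of 141. The 3 healthy small oocytes, at 1637, 2086 and 2418 CPM, stood above all other oocytes, and the other 6 small oocytes lay between 160 and 727 CPM. The identifiers of these 3 begin with 620, as those of no other retained oocyte do. Health and these leading digits thus cannot be told apart among small oocytes. The log2 fold change was -2.57 (SE 0.44, adjusted p = 0.00387, edgeR), against -3.70 in the healthy follicles and -1.40 in the follicles outside them. MGCs had at most 0.0646 CPM and CCs at most 0.924 CPM.

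ENSBTAG00000006423, the other falling gene, is somatic-enriched. Its level in small oocytes ran from 0.267 CPM in OS50502 over a median of 8.71 to 31.2 CPM in OS71701. In large oocytes it ran from 0.617 over 3.57 to 8.46 CPM. The stages overlapped, and the 2 highest small oocytes, OS71701 and OS70501 at 31.2 and 29.3 CPM, stood apart from the third at 20.6 CPM. The log2 fold change was -1.92 (SE 0.56, adjusted p = 0.0397, edgeR). CCs of small follicles had 108 ± 21.8 CPM (SD, n = 8) and those of large follicles 71.7 ± 19.9 CPM (SD, n = 10), and the part of cumulus RNA in the oocyte values was not tested.

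ENSBTAG00000002645, which is shared between oocytes and somatic cells, had the largest rise. OS71701 had no count and OS50502 had 0.0445 CPM, and the small oocytes reached a median of 11.3 CPM and a maximum of 27.2 CPM. The large oocytes ran from 25.1 to 82.7 CPM with a median of 49.0. Only the lowest large oocyte, OL71801, lay within the small range, below OS70501 and OS70701. The log2 fold change was 2.13 (SE 0.61, adjusted p = 0.0353, edgeR). The medium oocytes ran from 13.7 to 51.7 CPM and overlapped both stages. Their median of 39.8 CPM lay between those of the small and the large oocytes.

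ENSBTAG00000015016, the other rising gene, is somatic-enriched and had its highest levels in MGCs, at 103 ± 57.9 CPM in large follicles (SD, n = 10). In small oocytes it ran from 0 CPM in OS50502 over 3.45 to 9.58 CPM in OS70701. In large oocytes it ran from 7.80 CPM in OL70504 over 16.4 to 24.3 CPM in OL70503. The ranges overlapped through OL70504 alone, which lay below OS70701 and OS62003. The log2 fold change was 2.06 (SE 0.57, adjusted p = 0.0292, edgeR). It rose while the summed share of somatic-enriched genes was lower in large oocytes.

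**Figure D2:**
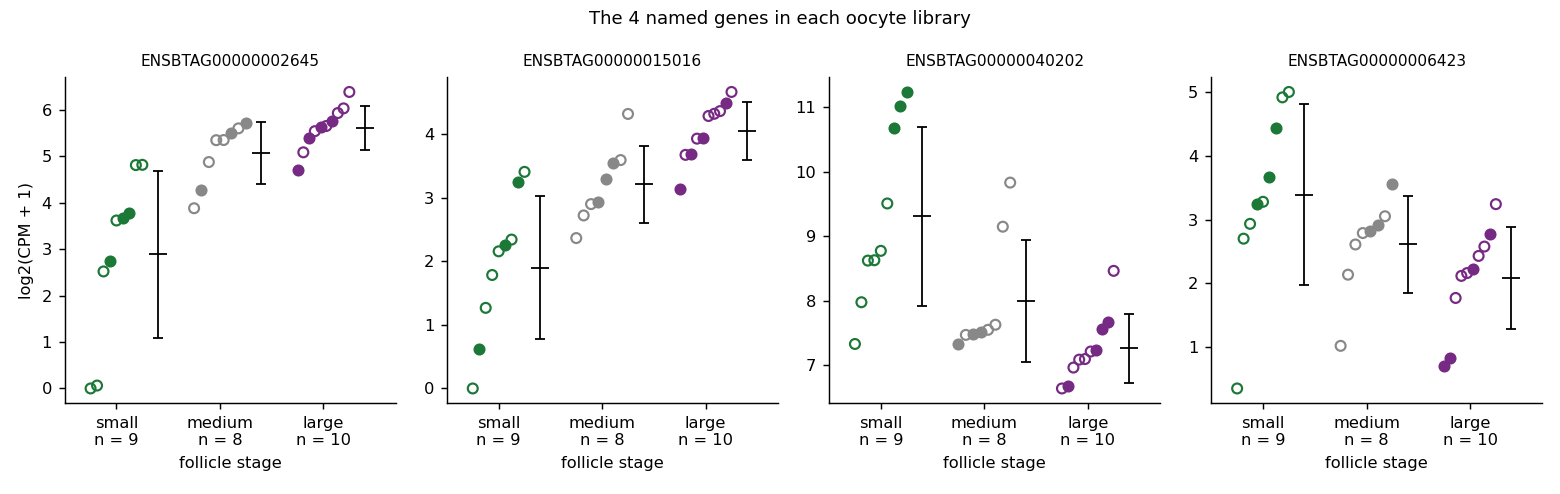
Each point is 1 oocyte library, with log2(CPM + 1) on the vertical axis and the follicle stage on the horizontal axis. Filled points are healthy follicles, and bars give the mean and SD of each stage. The 3 filled small oocytes top the plot of ENSBTAG00000040202, and medium oocytes lie nearer to large than to small ones in both rising genes.

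These 4 calls differed in how much they rested on single oocytes. ENSBTAG00000040202 stayed below an adjusted p of 0.05 in all 19 fits that left out 1 oocyte (edgeR, log2 fold change from -2.78 to -2.26). With the identifier prefix as a covariate its log2 fold change was -1.37 (edgeR, adjusted p = 0.268), a fall of 2.58 times in place of 5.96 times. ENSBTAG00000015016 did so in 14 of the 19, ENSBTAG00000002645 in 10 and ENSBTAG00000006423 in 8. The highest adjusted p from edgeR among these fits was 0.0890, and no direction turned.

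The most abundant messages took a smaller share of the RNA in large than in small oocytes. Genes were ranked by their level in medium oocytes, which are in neither group, and the somatic-enriched class also used that level. The part of this choice in the differences of these classes was not tested. The 100 most abundant took 22.4 ± 1.43% of the counts in small oocytes (SD, n = 9) and 20.1 ± 1.30% in large ones (SD, n = 10). The difference of -2.34 percentage points had p = 0.00204 in an exact two-sided permutation test and 0.01 after adjustment over 11 measures. The large group ran from 18.5 to 22.4% and the small group from 20.5 to 24.5%, so the groups overlapped. The share of each library's own 100 largest genes fell likewise, from 23.4 ± 1.83% to 20.7 ± 1.48% (SD, n = 9 and 10, exact permutation p = 0.00273, adjusted 0.01).

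The largest gain was in the genes after rank 2000 and up to 6000. They held 22.3 ± 1.26% of the counts in small and 24.3 ± 1.02% in large oocytes (SD, n = 9 and 10, exact permutation p = 0.00184, adjusted 0.01). Genes below rank 6000 held 5.84 ± 0.49% and 6.33 ± 0.30% (exact permutation p = 0.0176, adjusted 0.0388, n = 9 and 10), but the adjusted p was under 0.05 in only 7 of the 19 sets that left out 1 oocyte. For ranks up to 500 and up to 2000, the next classes below the top 100, the differences were -0.286 and 0.150 percentage points (exact permutation p = 0.218 and 0.428, n = 9 and 10). The gene by gene test gave the same gradient down to rank 6000. Of the 100 most abundant genes 18 fell and 8 rose at an adjusted p under 0.05 with no fold limit, whereas at ranks 2000 to 6000, 170 fell and 177 rose. The median log2 fold change went from -0.22 at ranks 1 to 100 over -0.11 and -0.03 to 0.09 at ranks 2000 to 6000. It was 0.03 for the 8936 genes below rank 6000, so the gradient did not go on there. With library totals alone the outer classes kept this order, with -0.14 and 0.17.

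Somatic-enriched genes held 2.59 ± 0.41% of the counts in small and 2.08 ± 0.40% in large oocytes (SD, n = 9 and 10, exact permutation p = 0.0138, adjusted 0.038), and the adjusted p was under 0.05 in 10 of the 19 sets that left out 1 oocyte. The shares of the 100 most abundant genes, of each library's 100 largest and of ranks 2000 to 6000 passed in all 19. With the removed small follicle OS70702 included, none of the 5 shares passed, with an adjusted p of 0.124 for these 3, 0.0779 for somatic-enriched genes and 0.377 below rank 6000 (exact permutation, n = 10 and 10). OS70501 had the highest share, 3.46%. The share of oocyte-enriched genes was 29.9 ± 0.97% and 29.5 ± 1.30% (exact permutation p = 0.41, n = 9 and 10), and that of genes detected also missed the threshold, with 14142 ± 1837 against 15063 ± 1245 genes (p = 0.213). In the healthy follicles (3 and 4 oocytes) the differences were -1.39 percentage points for the 100 most abundant genes, 0.864 for ranks 2000 to 6000, 0.0973 below rank 6000 and -0.441 for somatic-enriched genes. Their exact permutation p was 0.143, 0.229, 0.771 and 0.0571, where 35 arrangements can give 0.0286 at the least (n = 3 and 4).

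**Figure D3:**
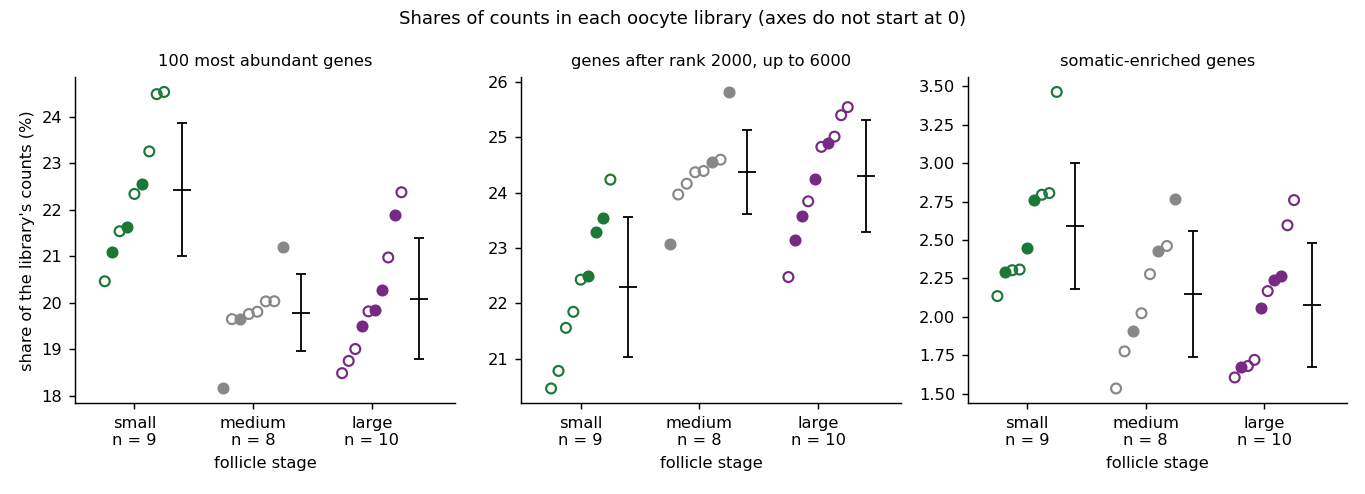
Each point is 1 oocyte library, with the share of its counts (%) on the vertical axis for 3 gene classes and the follicle stage on the horizontal axis. Filled points are healthy follicles, and bars give the mean and SD. Small oocytes lie higher for the 100 most abundant genes and the somatic-enriched genes and lower for ranks 2000 to 6000, with medium oocytes at the level of large ones. Ranks and the somatic-enriched class used the level in medium oocytes, so the place of medium oocytes is partly fixed by that choice.

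Small oocytes were less alike than large ones. Over the tested genes, Spearman's rho had a median of 0.897 between small oocytes (36 pairs, from 0.794 to 0.960), 0.943 between large oocytes (45 pairs, from 0.882 to 0.967) and 0.923 between the stages (90 pairs). These pairs share libraries and are a description only. Median rho to the other small oocytes was lowest in OS50502 (0.832), OS71701 (0.863) and OS70501 (0.894). These had the fewest genes detected of the small oocytes. OL71801, with the fewest of the large, had the lowest median rho to the other large oocytes (0.892). The part of gene detection in these values was not tested. By its median rho, 5 of the 9 small oocytes were closer to the large group than to the other small oocytes, and 9 of the 10 large oocytes were closer to their own group. The exception among the large was OL50505. Stage accounted for 11.6% of the squared distance between the 19 oocytes, where the median over 92378 arrangements was 5.19% (exact one-sided permutation p = 0.0022, n = 9 and 10).

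A pair of oocytes stood against its stage at the DEGs. OS70701, a small oocyte, was nearer to the mean of the large oocytes at 139 of the 171 abundant DEGs. OL50505, a large oocyte, was nearer to the mean of the other large oocytes at 58 of them and to the small mean at 113. The other 8 small oocytes were nearer to the small mean at 69.6 to 98.2% of the genes, and the other 9 large ones at 1.75 to 25.7%. Since all 19 oocytes had a part in choosing these genes, this places the oocytes and tests nothing.

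Leaving out either of these oocytes gave the highest numbers of DEGs. It was 465 without OS70701 and 355 without OL50505 and, in a fit added after the values were seen, 623 without both. It dropped to 96 without OS50501, 125 without OL62802, 144 without OL62803, 146 without OL70703 and 150 without OL70503, and lay between 154 and 259 without any other oocyte. With the removed small follicle included there were 109 DEGs. The DEGs that were called in each of the 19 fits numbered 68, of which 58 were abundant, 42 that rose and 16 that fell. DESeq2 called 293, and 167 genes were called by both tools, which is 74.2% of the edgeR list and 57.0% of the DESeq2 list.

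**Figure D4:**
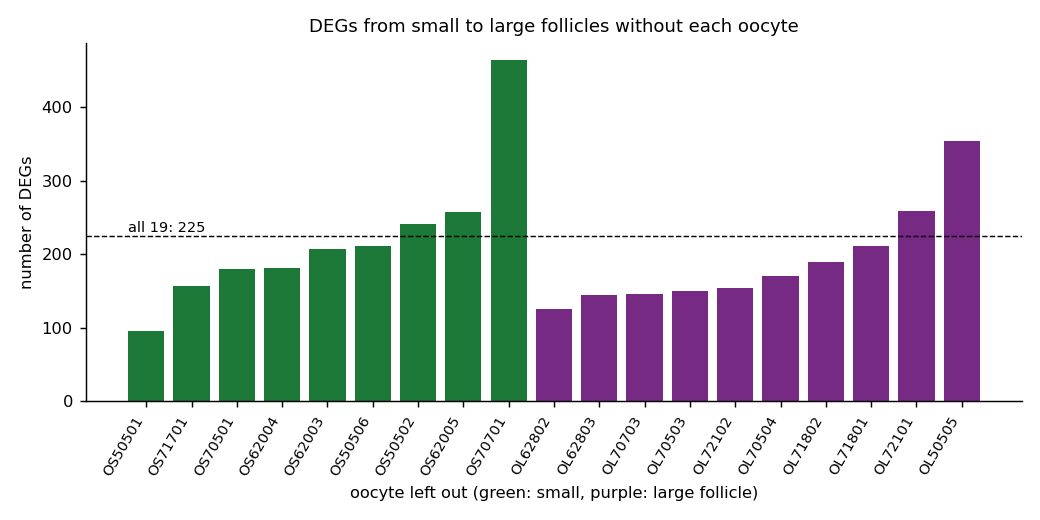
Each bar is the number of DEGs from small to large follicles when the oocyte named below it is left out of the fit, green for small and purple for large follicles. The dashed line marks the 225 DEGs with all 19 oocytes. The 2 tallest bars are OS70701, at 465, and OL50505, at 355, and the lowest is OS50501, at 96.

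The leading 3 digits of the follicle identifiers were unevenly spread over the stages. The small oocytes carried 5 prefixes and the large oocytes 6, and 3 prefixes held both stages: 505 with 3 small and 1 large, 705 with 1 small and 2 large, and 707 with 1 of each. OS70701 and OL50505 are both in such a prefix. What the prefix records is not given in the sources used here. With the prefix as a covariate edgeR called 0 DEGs (0.0%), with 511 genes past the fold change at an unadjusted p under 0.05 (3.42%), 421 that rose and 90 that fell. All 171 abundant DEGs had the same sign in that fit, which used the same libraries. An unadjusted p under 0.05 was reached there by 74 of the 105 rising and 52 of the 66 falling genes. Since the genes were called on the same contrast in these libraries, the shared signs and these counts test nothing.

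The stages were therefore compared inside the shared prefixes at genes called without their small and large oocytes. A fit added after the values were seen held, of small and large oocytes, only the 4 and 6 whose prefix held 1 of the 2 stages. Of these 4 small oocytes, 3 had prefix 620. The 8 medium oocytes stayed in for the estimate of the spread, and OM70502 among them has prefix 705. In this fit 193 genes were DEGs (1.3%), and 136 rising and 44 falling ones had at least 8 CPM. In prefix 705, 97.1% of these rising genes were higher in the large oocytes and 86.4% of the falling genes lower, where 57.9% and 38.0% of all tested genes went these ways. In prefix 505 the shares were 82.4% and 81.8%, beside 60.8% and 34.9% of all genes. In prefix 707 they were 73.5% and 61.4%, beside 49.6% and 45.8%. The mean log2 differences were smallest there, with medians of 0.22 and -0.24, against 1.13 and -0.67 in prefix 705 and 0.57 and -0.40 in prefix 505. The shares of all tested genes also cover genes below 8 CPM, unlike those of the called genes.

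The mean of the rising minus the mean of the falling genes gives each oocyte 1 position. In each of the 3 prefixes every large oocyte lay above every small one. In prefix 505 the small oocytes lay at -2.20, -1.62 and -0.78 and the large oocyte at -0.44, the lowest of the large oocytes in these 3 prefixes. In prefix 707 the small oocyte lay at 0.71, the highest of the small oocytes in these 3 prefixes, and the large one at 1.09. In prefix 705 the small oocyte lay at -1.03 and the large ones at 0.68 and 0.94. Oocytes of both stages lay lower in prefix 505 than in prefix 707. Over all tested genes, stage held 16.9% of the squared distance among these 9 oocytes, the highest of the 24 arrangements within prefixes (exact one-sided permutation p = 0.0417, the smallest they can give, n = 5 and 4).

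**Figure D5:**
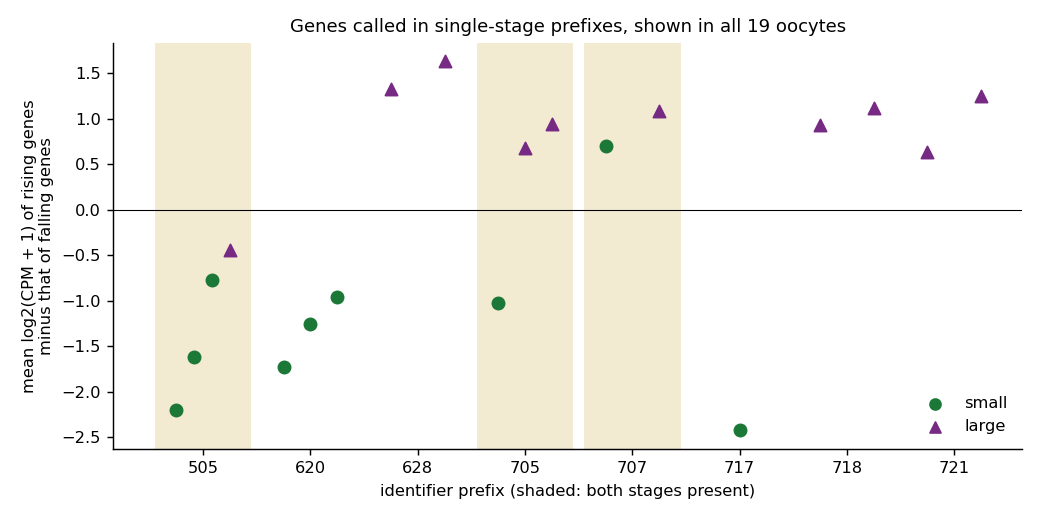
Each point is 1 oocyte, placed by its identifier prefix on the horizontal axis and by the mean log2(CPM + 1) of 136 rising genes minus that of 44 falling genes on the vertical axis. The genes were called on the small and large oocytes of the unshaded prefixes, each of which holds 1 of the 2 stages. The oocytes shown in the shaded prefixes 505, 705 and 707 took no part in that contrast. Medium oocytes, 1 of them of prefix 705, shared its estimate of the spread. In each shaded prefix the large oocytes (triangles) lie above the small ones (circles).

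The shares of counts also kept their direction inside the shared prefixes. The 100 most abundant genes differed between large and small oocytes by -0.984, -2.11 and -0.957 percentage points in prefixes 505, 705 and 707, and the genes of ranks 2000 to 6000 by 1.08, 2.2 and 0.670. Somatic-enriched genes differed by -0.410, -1.76 and -0.243 percentage points, and each library's own 100 largest genes by -1.19, -2.85 and -0.795. These prefixes hold too few oocytes for a test of each. Their oocytes also entered the differences found above, so the kept direction is a description and tests nothing.

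The named genes had the same order inside the shared prefixes, with 1 exception. Since the oocytes of these prefixes had a part in choosing the genes, this order is a description and tests nothing. ENSBTAG00000002645 was at 4.74, 11.3 and 0.0445 CPM in the small and 33.0 CPM in the large oocyte of prefix 505, at 27.1 against 45.6 and 48.5 CPM in prefix 705 and at 27.2 against 53.1 CPM in prefix 707. ENSBTAG00000040202 was at 394, 727 and 251 against 135 CPM in prefix 505, at 436 against 135 and 187 CPM in prefix 705 and at 160 against 102 CPM in prefix 707. ENSBTAG00000015016 was also higher in each large oocyte than in each small one of its prefix. ENSBTAG00000006423 was lower in the large oocytes of prefixes 705 and 707, but in prefix 505 the large oocyte, at 3.46 CPM, lay among the small ones at 0.267, 5.49 and 8.71 CPM.

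In the healthy follicles alone, 1 of 14760 genes was a DEG by edgeR (0.00678%), the fall of ENSBTAG00000040202 from 2047 ± 392 CPM (SD, n = 3) to 160 ± 44.7 CPM (SD, n = 4), with an adjusted p of 4.82e-05. At an unadjusted p under 0.05, 702 genes passed the fold change (4.76%), 443 that rose (3.0%) and 259 that fell (1.75%). The healthy oocytes did not overlap between the stages at 1914 genes (13.0%), 954 with higher levels in large oocytes (6.46%) and 960 with lower levels (6.5%). DESeq2 called 232 DEGs with the same libraries, 172 that rose and 60 that fell. The healthy small oocytes all have prefix 620, which no large oocyte has, so stage and prefix cannot be told apart in this subset. ENSBTAG00000002645 was at 10.0 ± 3.77 CPM (SD, n = 3) in healthy small and 42.0 ± 12.3 CPM (SD, n = 4) in healthy large oocytes, and its log2 fold change of 2.06 had an adjusted p of 0.126 from edgeR. Stage held 21.9% of the squared distance between the 7 healthy oocytes (exact one-sided permutation p = 0.0571, n = 3 and 4).

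The follicles outside the healthy subset, 6 small and 6 large, had 0 DEGs by edgeR (0.0%), with 1096 genes past the fold change at an unadjusted p under 0.05 (7.39%). No other tool was run on them. Among the genes of at least 8 CPM, 291 rose and 270 fell at this unadjusted limit. In the healthy oocytes, which are other libraries, 218 of the 291 (74.9%) were also higher in large oocytes, where 45.5% of all genes were. Of the 270, 218 (80.7%) were lower, where 52.4% of all genes were. In the reverse direction, 311 of 333 genes that rose in the healthy oocytes (93.4%) were higher in the large oocytes outside them, beside 66.1% of all genes. Of the 151 that fell, 71 (47.0%) were lower, beside 32.7% of all genes, and their median difference was 0.08 on the log2 scale. All 4 shares lay above that of all genes, a set that also holds genes below 8 CPM. Some prefixes hold oocytes of both subsets.

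The abundant DEGs of oocytes were set beside the CCs and MGCs of the same follicles, without the CC pool of the follicle of OS70701, which had counts for 1066 genes only. Of the 105 genes that rose, 97 had a positive log2 fold change in CCs (8 small and 10 large pools), with a median of 0.72, where 55.6% of all genes were positive and the median was 0.11. Of the 66 that fell, 58 were negative in CCs, with a median of -1.22, where 44.0% of all genes were negative. As DEGs of CCs, 1 of the 105 and 19 of the 66 were called (28.8% of the falling genes), beside 505 of 15109 genes (3.34%). In MGCs (9 small and 10 large samples) 46 of the 105 were positive and 35 of 65 negative, with medians of -0.02 and -0.03. Of all genes in MGCs, 48.6% were positive and 51.1% negative, with a median of -0.01. As DEGs of MGCs, 2 of the 105 and 0 of the 65 were called, beside 628 of 14910 genes (4.21%). CCs and oocytes of a follicle were both amplified by SMART-seq2, and MGCs were sequenced in bulk. The parts of cumulus RNA, of amplification and of the identifier prefix in this likeness were not tested.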

How the data were processed

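The deposited values are counts per gene and library, without normalization, for 27270 Ensembl identifiers in 90 columns. According to the methods, the authors aligned reads to ARS-UCD1.2 with STAR, kept unique reads and counted exons with featureCounts, whereas the submitters' processing notes name HISAT2 2.2.1 and Subread, and the deposited table carries the name of HISAT2, so the counts may come from that aligner. Reads multiply mapped between gene copies were thus left out if the methods apply.

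The filter asked for more than 1 CPM in 15 or more retained samples of MGCs, of CCs or of oocytes, over all stages, and left 15134 genes. CPM took the place of TPM, since exon lengths were not used here. EdgeR 4.0.16 in R 4.3.3 (TMM, glmQLFit, glmQLFTest, Benjamini-Hochberg) was fitted over the 27 retained or the 10 healthy oocytes of the 3 stages, with the contrast large minus small, and a DEG has a fold change above 2 and an adjusted p under 0.05, the study's thresholds. SEs were derived from the F statistic. DESeq2, the study's tool, was the alternative (version 1.42.0). Single values and distances (on log2(CPM + 1)) were tested by exact permutation in Python 3.11.15 with numpy 2.4.6, pandas 2.3.3 and scipy 1.17.1, and plots used matplotlib 3.10.9. The fits were tested on simulated data. A floor of 0.5 CPM was added before enrichment ratios of cell classes were taken.

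The members, gene classes and lists were chosen with earlier results of these data known. Marker and pathway lists by symbol were planned and not run, because none of the 27270 identifiers matched a symbol, and no sequences are printed. The genes named are the 2 DEGs with the largest rise and the 2 with the largest fall. The planned rule without symbols did not repeat its floor of a mean of 8 CPM, which was kept here. Libraries were amplified without molecular identifiers, so depth bounds counting error only.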

Additional observations from a re-analysis of the deposited data

Results flagged for a closer look

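In 3 groups of oocytes 1 sample lay far from the others by the gap to its nearest neighbour, and chance flags about 1 in 20 groups (24 were tested). Among large oocytes, OL72102 had the highest level of ENSBTAG00000040202, at 352 CPM beside a median of 141 CPM (n = 10). Among large oocytes, OL71801 had the fewest genes detected, 11861 beside a median of 15383.5 (n = 10). Among small oocytes, OS70501 had the largest share of somatic-enriched genes, 3.46% beside a median of 2.45% (n = 9).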

How the results depend on the processing

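The 225 DEGs of the retained follicles became 928 (585 rose, 343 fell) at an unadjusted p, 844 with no fold limit, 106 (51 rose, 55 fell) with only small and large libraries in the fit, 131 with the number of genes detected as a covariate, 109 with the removed small follicle and 623 without OS70701 and OL50505. EdgeR called 0 with all removed follicles (608 at an unadjusted p), with the identifier prefix as a covariate (511) and outside the healthy subset (1096), and DESeq2 was not run on these 3. Leaving out each oocyte gave 96 to 465. DESeq2 (293), its size factors (226), library totals (233), filterByExpr (198), a filter over the oocytes (186), no filter (249), robust fitting (229), leaving out the 3 libraries with the fewest genes (166), leaving out OS50506 and OL50505 (331) and single-stage prefixes (193) stayed within 1.5 times. The 1 healthy DEG became 702 at an unadjusted p, 232 with DESeq2, 9 with library totals, 2 with a filter over the oocytes, 6 with no filter and 1 to 2 without each oocyte. With DESeq2's adjusted p, 4384 genes in the retained and 5162 in the healthy follicles had none. No alternative turned the direction of a named gene. The adjusted p of ENSBTAG00000040202 ranged from 1.52e-45 to 0.268 over 51 alternatives, and those of ENSBTAG00000002645, ENSBTAG00000015016 and ENSBTAG00000006423 reached 0.566, 0.805 and 0.669. In the healthy follicles, the difference of large minus small turned to -555 genes detected, 2246140 total counts, 0.47 percentage points for oocyte-enriched and -0.0288 for shared genes, 0.456 and -0.0211 for the ranks up to 500 and up to 2000, and it missed the threshold for each library's 100 largest genes (-1.5) and for somatic-enriched genes (-0.441). The share of squared distance in healthy oocytes passed the threshold with log2(CPM + 5) (26.0%) and with genes of at least 8 CPM (25.2%). Without any 1 of the 19 oocytes, the shares of the 100 most abundant genes, of the largest 100, of ranks 2000 to 6000, of those below rank 6000 and of somatic-enriched genes kept an unadjusted p under 0.05. The adjusted p of somatic-enriched genes missed it without OS50501, OS70501, OS50506, OS62005, OL70503, OL72102, OL62802, OL70703 or OL70504 (0.0149 to 0.0674 over the 19), and that of genes below rank 6000 passed only without OS62005, OS62003, OS70701, OL70503, OL72102, OL72101 or OL71801 (0.0127 to 0.0816). The causes were not tested. Counts of symbol lists were not run. No paired analysis was possible because small and large oocytes come from different follicles and their replicate numbers follow accession order, and the identifier prefix served as a covariate and a permutation block without pairing follicles.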
